A study of Rattus norvegicus with 8 samples.

Results

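Semg1, Svs4, Ceacam10, Tgm4 and Klk1 were followed in the ventral prostate of TRAP rats, in which a viral T antigen driven by the probasin promoter gives rise to prostate tumours. Probes were taken by gene name, and 5 of 5 genes were found, with 6 of the 41012 probes on the array between them. On the array Semg1 is written Svs2, Svs4 is written Svp4 and Klk1 is written Klk7, and these were matched through their RefSeq accessions; Ceacam10 (current RefSeq symbol Ceacam4, 2 probes) and Tgm4 carry their own names. Each gene had 1 probe except Ceacam10.

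The study split 36 male rats heterozygous for the transgene, aged 3 weeks at the start, into 3 groups that drank plain water or telmisartan, an angiotensin receptor antagonist used against high blood pressure, at 2 or 10 mg/kg/day for 12 weeks. The arrays cover 4 control rats, on basal diet and tap water (102, 103, 104 and 106), and 4 rats given 10 mg/kg/day (302, 303, 305 and 306). All 8 rats carried the transgene and were male SD rats of 15 weeks of age. Each array set Cy5-labelled RNA of 1 TRAP ventral prostate against Cy3-labelled RNA of normal ventral prostate from male F344 rats of 6 weeks of age. No dye was swapped, so the transgene, strain, age and dye cannot be told apart in the ratio of TRAP prostate to reference; both treatment groups share them. The probasin promoter is active in prostate epithelium, and a whole gland was measured, in which fewer cells of a type and less RNA per cell cannot be told apart. The labels do not say how many F344 rats gave the reference or whether all 8 arrays shared 1 preparation.

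Semen of rodents clots into a plug. The seminal vesicles secrete the clotting proteins, among them the semenogelin-like Semg1 and the small, androgen-dependent Svs4, and the coagulating gland, a lobe of the prostate, secretes Tgm4, a transglutaminase that cross-links them. Ceacam10 is a secreted member of the carcinoembryonic antigen family that in the mouse is made by the seminal vesicle, while the human gene CEACAM4 is known from granulocytes. Klk1 is tissue kallikrein, a serine protease that frees kinins, and sits in a cluster of close paralogs in the rat. A transcript of seminal vesicle or coagulating gland in either channel bears on whether tissue of a neighbouring gland was carried into the dissected ventral prostate.

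Each probe is a 60-base oligonucleotide, so what it measures depends on how far that sequence is its own. The probes of Semg1, Svs4 and Ceacam10 shared no run of 20 bases with any of the 41011 other probes, nor did the second Ceacam10 probe or that of Tgm4. They are shown in lower case because no run of that length was shared. The search covered exact runs among array probes and not transcripts, so it cannot show that a sequence is the gene's own.

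Semg1: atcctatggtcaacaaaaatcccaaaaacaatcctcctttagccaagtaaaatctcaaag

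Svs4: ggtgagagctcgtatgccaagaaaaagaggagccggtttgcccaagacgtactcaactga

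Ceacam10: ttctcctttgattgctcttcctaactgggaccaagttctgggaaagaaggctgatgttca

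The Klk1 probe was the exception. It shared an unbroken run of 42 bases, its positions 19 to 60 counted from the 5′ end, with a probe that the array names LOC292872, the gene number of Klk1c3 in RefSeq. Capitals mark the shared run, and the ratio of the Klk1 probe can hold signal of this paralog.

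Klk1: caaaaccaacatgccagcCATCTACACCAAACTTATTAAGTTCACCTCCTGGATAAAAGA

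Klk1c3: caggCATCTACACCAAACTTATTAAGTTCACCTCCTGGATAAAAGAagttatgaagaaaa

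Semg1 and Svs4 are also neighbours. In the RefSeq annotation of build GRCr8 both lie on chromosome 3 on the minus strand, their starts 37.6 kb apart, in a run of seminal vesicle genes that holds Semg1, Svs3b, Svs4, Svs3a, Svs6 and Svs5. Their promoters, taken as 250 bases before to 50 after the start, are printed with the letters TATAAA, those of a TATA box, in capitals. Both strands were searched, and the letters were marked wherever they fell in the window. All 6 genes of the run held these letters in the window of 300 bases, against 14.2% of 33469 promoters. Some of the 6 windows are near copies of each other, as for Svs3b and Svs3a, so they are not independent sequences. In Semg1 they begin at -41 and in Svs4 at -152 and at 2, with the first transcribed base counted as 1. The match at 2 thus lies after the annotated start of Svs4. Whether any match acts as a TATA box was not tested. The letters AGAACA, a half-site of the androgen response element, occur in 20.7% of promoters, in 1 of the 6 genes of the run, Svs5, and in neither sequence printed.

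Semg1, GRCr8 chr3:173332212-173332511, minus strand: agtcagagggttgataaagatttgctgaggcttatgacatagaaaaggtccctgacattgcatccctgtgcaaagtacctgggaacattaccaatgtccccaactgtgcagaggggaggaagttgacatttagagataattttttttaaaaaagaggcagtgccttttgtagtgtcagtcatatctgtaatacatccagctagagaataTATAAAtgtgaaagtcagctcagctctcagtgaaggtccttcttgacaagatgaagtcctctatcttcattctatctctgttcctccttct

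Svs4, GRCr8 chr3:173369829-173370128, minus strand: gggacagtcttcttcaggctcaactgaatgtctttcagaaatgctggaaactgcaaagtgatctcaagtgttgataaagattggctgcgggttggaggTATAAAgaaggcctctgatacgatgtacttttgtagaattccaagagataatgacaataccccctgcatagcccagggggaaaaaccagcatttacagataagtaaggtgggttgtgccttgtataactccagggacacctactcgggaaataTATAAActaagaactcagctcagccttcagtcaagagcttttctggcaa

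The arrays lay on 2 slides with 2 rats of each group on each, and telmisartan arrays held positions 1 and 2 and control arrays positions 3 and 4 on both, so position and treatment cannot be told apart. The share of probes well above background was 59.21% to 76.83% in Cy5 (64.72% to 76.83% in control and 59.21% to 68.07% in telmisartan arrays) and 48.17% to 52.57% in Cy3. Ratios were fitted for the 23193 genes that had a probe well above background in the TRAP channel on 4 or more of the 8 arrays. Of the 6 probes, 5 passed, and 4 of the 5 genes were tested, all but Tgm4. No spot of the 6 probes was saturated in either channel.

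Semg1 and Klk1 were among the lowest of all genes in TRAP prostate relative to the reference, Svs4 was low as well, Ceacam10 was mostly higher than in the reference, and Tgm4 had no measurable level in the reference. Of the 4 tested genes, 3 were below the reference by over 2-fold on all 8 arrays, a state that 3.29% of all genes tested shared; 0 of 4 were above it by over 2-fold on all 8 arrays, against 3.73% of all genes. The values that follow are log2(Cy5/Cy3), the log2 ratio of TRAP prostate to F344 reference on 1 array.

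**Figure D1:**
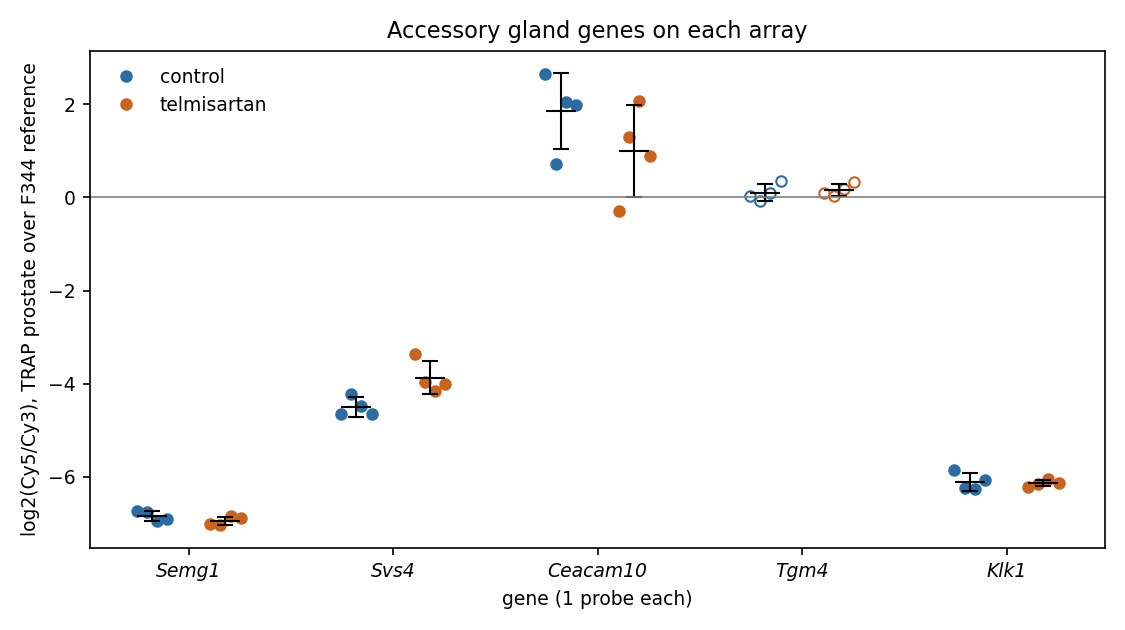
Log2 ratio of TRAP prostate (Cy5) to F344 reference (Cy3) for each gene, 1 point per rat, with control rats in blue and telmisartan rats in orange. Black lines give the mean and SD of 4 rats, and open points mark Tgm4, whose probe was above background on 1 of 8 arrays in Cy5 and 0 of 8 in Cy3; Semg1, Svs4 and Klk1 lie far below 0 on every array, and the groups part without overlap for Svs4.

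Semg1, the semenogelin-like clotting protein, had log2 ratios of -6.73, -6.75, -6.94 and -6.91 in control rats 102, 103, 104 and 106, and of -7.02, -7.03, -6.85 and -6.89 in telmisartan rats 302, 303, 305 and 306. The values lay within a narrow band in every rat, and the groups overlapped. The means were -6.83 ± 0.11 (SD, n = 4) in control and -6.95 ± 0.09 (SD, n = 4) in telmisartan rats, or 114.1-fold and 123.4-fold below the reference, and only 1 of the 23193 genes had a lower mean ratio. These folds depend on the scaling: over 8 arrays Semg1 was 118.7-fold below the reference after loess and 47.9-fold with median centring. The probe still gave signal in TRAP prostate, as it stood well above background in both channels on 8 of 8 arrays. Whether all of the Cy5 signal is Semg1 transcript was not tested. The uncorrected intensity of the probe was 992 to 1612 in Cy5 and 24887 to 30184 in Cy3, with log2 ratios of -4.84 to -4.06. Telmisartan minus control was -0.11 on the log2 scale (SE 0.10, adjusted p = 0.981 by limma with Benjamini-Hochberg adjustment), and the 95% interval ran from -0.33 to 0.10. The difference was -0.29 on slide 1 and 0.06 on slide 2.

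Svs4, the androgen-dependent seminal vesicle protein, was the one gene of the 5 whose groups did not overlap. Its log2 ratios were -4.66, -4.22, -4.48 and -4.65 in control rats and -3.36, -3.96, -4.16 and -4.00 in telmisartan rats, in the order used above. Rat 302 stood highest and rats 102 and 106 lowest. The means were -4.50 ± 0.21 (SD, n = 4) and -3.87 ± 0.35 (SD, n = 4), or 22.6-fold and 14.6-fold below the reference, with 51 genes lower in mean ratio. Over 8 arrays it was 18.2-fold below the reference, and 7.22-fold with median centring. Its uncorrected intensity was 2771 to 7632 in Cy5 and 14258 to 17714 in Cy3. The log2 ratio of these uncorrected intensities was only -2.44 to -0.96, so the depth depends on the normalisation.

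Svs4 was thus closer to the reference under telmisartan by 0.63 on the log2 scale (SE 0.18, 95% interval 0.23 to 1.03), a 1.55-fold higher ratio. The difference did not pass the test across all genes (adjusted p = 0.928, unadjusted p = 0.00545, limma). It was 0.78 on slide 1 and 0.48 on slide 2. Among all genes tested, 2.73% had groups that did not overlap (1.5% higher and 1.23% lower in telmisartan rats), and 4.82% had an unadjusted p under 0.05. With 0% of genes called at an adjusted p under 0.05 (0 of 23193 by limma, 1118 at an unadjusted p under 0.05), no gene of the array stood out at this threshold. Leaving out control rat 102 or telmisartan rat 303 gave 1 called gene each, neither of them one of the 5.

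The difference in Svs4 lay in the TRAP channel. The normalised log2 intensity of Svs4 in Cy5 was 10.67 ± 0.27 (SD, n = 4) in control and 11.36 ± 0.36 (SD, n = 4) in telmisartan rats, a difference of 0.69. In Cy3, which carried the same kind of reference RNA on every array, it was 15.17 ± 0.07 (SD, n = 4) and 15.23 ± 0.04 (SD, n = 4), a difference of 0.06.

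Klk1, tissue kallikrein, had log2 ratios of -5.85, -6.23, -6.27 and -6.06 in control rats and -6.21, -6.17, -6.04 and -6.13 in telmisartan rats. Control rat 102 was the highest, and the groups overlapped. The means were -6.10 ± 0.19 (SD, n = 4) and -6.14 ± 0.07 (SD, n = 4), or 68.7-fold and 70.4-fold below the reference, with 6 genes lower. Over 8 arrays it was 69.6-fold below the reference, and 26.6-fold with median centring. Its uncorrected Cy3 intensity, 59943 to 70200, was the brightest of the 6 probes. In Cy5 the uncorrected intensity was 3817 to 7602, and the log2 ratio of the uncorrected intensities was -3.97 to -3.05. Telmisartan minus control was -0.03 (SE 0.11, 95% interval -0.29 to 0.22, limma adjusted p = 0.997), and without control rat 102 it was 0.05.

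Ceacam10 differed from the other genes in both direction and spread. The tested probe had log2 ratios of 2.65, 0.73, 2.05 and 1.99 in control rats and -0.30, 1.30, 2.07 and 0.90 in telmisartan rats, higher than the reference in 7 of 8 rats. Rat 302 was lowest and rat 102 highest, and the groups overlapped. The means were 1.86 ± 0.81 (SD, n = 4) and 0.99 ± 0.99 (SD, n = 4), or 3.62-fold and 1.99-fold above the reference, and 1021 genes had a higher mean ratio. The reference level itself was dim: this probe was above background in Cy3 on 4 of 4 control and 3 of 4 telmisartan arrays, all but that of rat 303. The mean ratio over 8 arrays, 1.42, was 2.03 with the scanner software's ratios and 2.14 with median centring. Telmisartan minus control was -0.86 (SE 0.51, 95% interval -1.99 to 0.27, limma adjusted p = 0.981), which was -1.19 on slide 1 and -0.54 on slide 2. The value ranged from -1.24 to -0.43 when 1 rat was left out, the smallest being that without telmisartan rat 302.

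The second Ceacam10 probe put the 8 rats in the same order. Its log2 ratios were 1.80, 0.60, 1.35 and 1.26 in control rats and -0.21, 0.90, 1.50 and 0.65 in telmisartan rats. It was above background in Cy3 on 1 of 4 control and 0 of 4 telmisartan arrays, and in Cy5 on 4 of 4 control and 3 of 4 telmisartan arrays, rat 302 being above it in neither channel, so no fold is given for this probe. The difference between groups, -0.54, had the same sign as that of the tested probe.

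Tgm4, the transglutaminase of the coagulating gland, gave no level in normal ventral prostate: its probe was well above background in Cy3 on 0 of 8 arrays. In Cy5 it was above background on 1 of 4 control and 0 of 4 telmisartan arrays. Its log2 ratios, -0.08 to 0.34 in control and 0.03 to 0.33 in telmisartan rats, therefore compare background with background and give no fold.

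**Figure D2:**
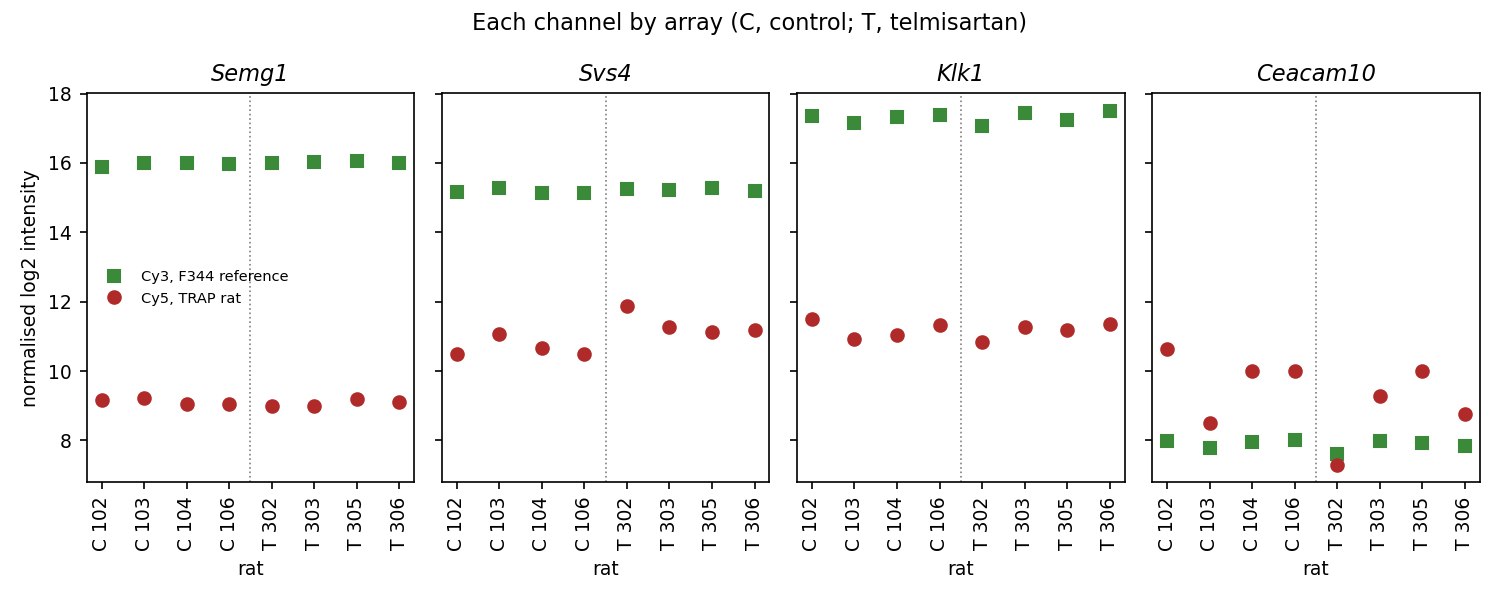
Normalised log2 intensity of Semg1, Svs4, Klk1 and Ceacam10 on each array, with the F344 reference (Cy3) as green squares and the TRAP rat (Cy5) as red circles. The reference is nearly level for every gene, with an SD over 8 arrays of 0.05 for Semg1 and 0.06 for Svs4, while the TRAP channel of Ceacam10 varies with an SD of 1.08.

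The spread between rats, read per channel, differed among the genes. Over 8 arrays the SD of the normalised log2 intensity in Cy5 was 0.09 for Semg1, 0.23 for Klk1, 0.47 for Svs4 and 1.08 for Ceacam10. In Cy3 it was 0.05, 0.15, 0.06 and 0.14 for the same genes. Semg1 varied least of these 4 genes in both channels. The Cy3 spread is between hybridisations of reference RNA, and between its preparations if these differed, whereas the Cy5 spread is between TRAP rats as well.

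Other genes of the seminal vesicle were compared to see how much of that gland's programme each channel held. Of 11 listed genes, 7 had a probe. The reference channel was above background on 8 of 8 arrays for Svs3a, Svs3b, Svs6 and Svs7, and on none for Svs1, Svs5 and Spink1, so the normal F344 ventral prostate gave signal for some seminal vesicle genes and not for others. In TRAP prostate only Svs3b, of these 7, was above background on 8 of 8 arrays, and its mean ratio, -0.69, was far less low than those of Semg1 and Svs4 beside it on the chromosome. Svs6, Svs7 and Svs3a were above background in Cy5 on 0 of 8 arrays. Their mean log2 ratios, -1.86, -1.66 and -1.10, are therefore not exact levels, and no fold is given. Whether tissue of the seminal vesicle was part of the reference was not tested.

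Genes made by the ventral prostate itself were low as well. Of 6 listed secretory genes 5 were tested, and 5 of 5 were below the reference by over 2-fold on all 8 arrays: Andpro, an androgen-regulated protein of the gland, at a mean ratio of -9.03, and the secretoglobins Scgb1d2 at -6.62, Scgb2a1 at -4.76 and Scgb1d4 at -4.60. Semg1, Klk1 and Svs4 thus lay inside the range of the gland's own secretory genes. A second probe assigned to Scgb2a1, named Scgb2a2 on the array, had a mean ratio of 3.80, so the probes of that gene disagree.

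The tested ventral prostate secretory genes differed between the groups in the same direction as Svs4, without passing the test. Their median difference between telmisartan and control was 0.30, against -0.0019 over all genes tested, and 5 of 5 differences were positive, as were 49.5% of all differences. Of the 5, 3 were higher at an unadjusted p under 0.05, against 2.74% of all genes tested, and 0 of 5 passed at an adjusted p under 0.05. The sixth gene, Spt1, was too dim to be tested: it was above background in Cy5 on 3 of 4 control and 0 of 4 telmisartan arrays, the opposite direction, and in Cy3 on 0 of 8. Its difference was -1.41 on the log2 scale. Scgb1d2 was 0.81 higher (limma adjusted p = 0.921) and Scgb1d4 0.44 higher (adjusted p = 0.981). The groups of Sbp, spermine-binding protein, named here after its values were seen, did not overlap, at -4.30 to -4.11 in control and -4.04 to -3.71 in telmisartan rats. The mean log2 ratio of the 5 genes per rat was -6.32 to -5.67 in the control and -5.87 to -5.45 in the telmisartan group. Their part in the Svs4 result was not tested. Of 12112 genes with a symbol, those whose ratios followed Svs4 most closely over the 8 arrays included Hmgn3 (Pearson r = 0.972) and Pex11a (0.969).

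Of genes known from the dorsolateral prostate and coagulating gland, 4 of 5 listed had a probe and 3 of the 4 tested were below the reference by over 2-fold on all 8 arrays. Msmb, beta-microseminoprotein, had a mean ratio of -6.64, Wfdc3 of -2.69, and Pbsn, probasin, of -2.60. Wfdc10a was above background in Cy3 on 0 of 8 arrays. Tgm4, the coagulating gland transglutaminase, was likewise not above background there, while Msmb and Pbsn were above it on 8 of 8. Of the 4 tested genes, 2 were higher in telmisartan rats and 2 lower, with a median difference of -0.06. The lower ones were Pbsn (-0.36) and Msmb (-0.16).

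The other transglutaminases did not share the depth of the secretory genes. Of 9 listed, 8 had a probe and 3 were tested, with mean ratios of -0.34 for Tgm1, -0.27 for Tgm2, the tissue transglutaminase, and -0.34 for F13a1, the clotting factor XIII A chain, which was above background in Cy3 on 1 of 8 arrays, so that its ratio is to a mostly unmeasured reference. None of the 3 was below the reference by over 2-fold on all 8 arrays, and 0 of 3 had an unadjusted p under 0.05 for telmisartan.

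Most tested kallikreins were low beside Klk1. Of 22 other kallikreins listed, 21 had a probe, 9 were tested, and 7 of the 9 were below the reference by over 2-fold on all 8 arrays. The lowest were the paralogs Klk1c8 at -6.06, Klk1c10 at -5.54, Klk1c3 at -5.25 and Klk1c9 at -5.25, near the -6.12 of Klk1 itself. The probes of Klk1c10 disagree: its other probe was above background in Cy5 on 3 of 8 arrays and in Cy3 on 0 of 8, with a mean ratio of -0.04. The Klk1c3 probe that shares the run of 42 bases with Klk1 is not the one used for that gene; its own mean ratio was -4.99. The longest unbroken run that the Klk1c8 probe shares with that of Klk1 is 19 bases, and the match goes on past a mismatched base. The other Klk1c10 probe shares a run of 11 bases with it. Signal from Klk1 and these paralogs, Klk1c3 among them, cannot be fully separated. The median difference of the 9 genes between telmisartan and control was -0.01, and 0 of 9 had an unadjusted p under 0.05.

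**Figure D3:**
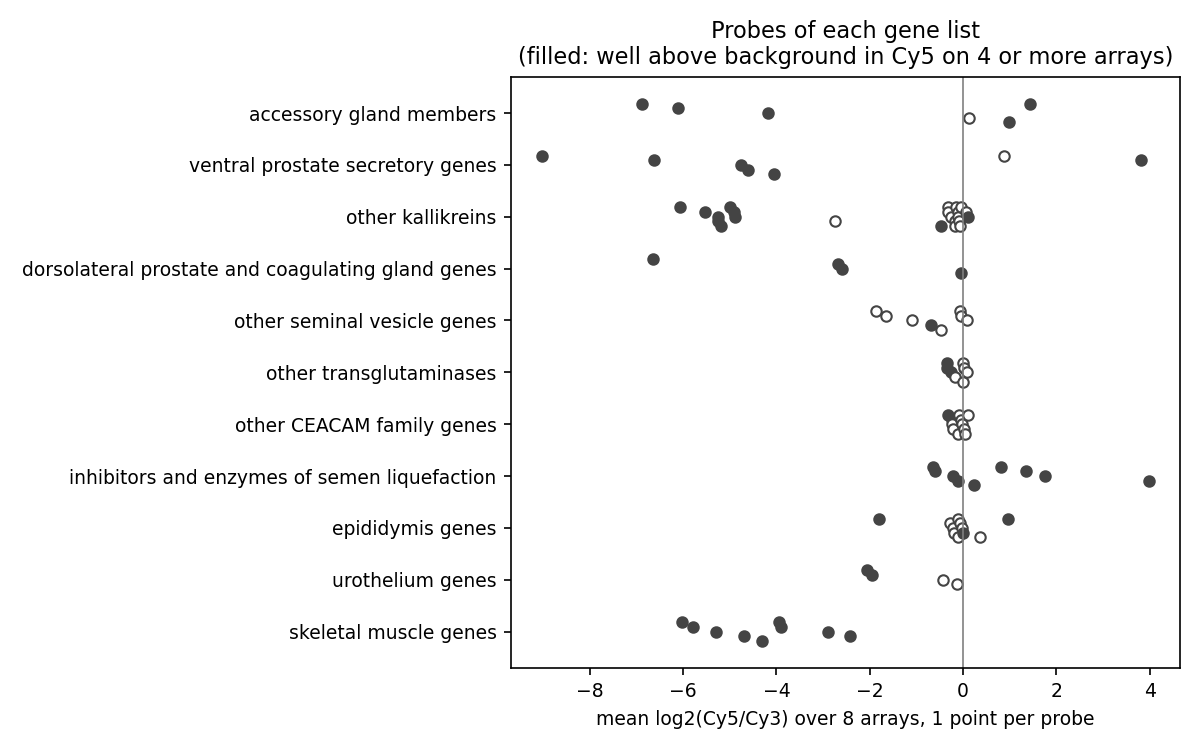
Mean log2 ratio of TRAP prostate to F344 reference over 8 arrays, 1 point per probe, by gene list; filled points were well above background in Cy5 on 4 or more arrays and open points were not, so that their ratios are not exact levels. Ventral prostate secretory genes, glandular kallikreins, skeletal muscle genes and Msmb of the dorsolateral list reach below -4, as do Semg1, Svs4 and Klk1. The other transglutaminases and other CEACAM genes lie near 0.

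Other CEACAM genes gave little signal. Of 14 listed, 10 had a probe and 2 were tested: Ceacam1, a cell adhesion molecule, had a mean ratio of -0.32 and Ceacam20 of -0.24, but in Cy3 they were above background on 4 and 1 of 8 arrays, so that both ratios are to a reference that was in part unmeasured. Neither was above the reference by over 2-fold on all 8 arrays.

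Markers of tissues outside the gland were examined as well. Of 10 listed skeletal muscle genes 8 were tested, and 8 of 8 were below the reference by over 2-fold on all 8 arrays, with a median mean ratio of -4.51; the lowest were Myh2, a myosin heavy chain, at -6.03 (its other probe at -3.91), and Actn3 at -5.79. The mean log2 ratio of these 8 genes was -4.45 to -4.31 in control and -4.53 to -4.39 in telmisartan rats. Of the urothelium genes, Upk1b was at -2.06 and Upk3a at -1.96, both uroplakins of the bladder lining. The other Upk1b probe, above background in Cy3 on 0 of 8 arrays, was at -0.44, and Upk3a ranged from -3.32 to -0.49 between rats. The epididymis genes were mostly unmeasured: 10 of 11 with a probe were above background in Cy3 on no array, and Adam7, an epididymal member of the ADAM family and the one gene measured in Cy3, was at -1.81. Rnase10 went the other way, above background in Cy5 on 8 of 8 arrays and in Cy3 on 0 of 8. Its mean log2 ratio of 0.95 is thus to an unmeasured reference, and no fold is given. Lcn5 was above background in Cy5 on 4 of 8 arrays and in Cy3 on 0 of 8. The reference channel therefore gave signal for muscle and urothelium genes alongside those of the accessory glands, and their part in the low ratios of Semg1, Svs4 and Klk1 was not tested.

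Immune cell genes ordered the rats much as Ceacam10 did. The 3 genes whose ratios were most like it over the 8 arrays were Il18bp (Pearson r = 0.994), an inhibitor of interleukin 18, Samsn1 (0.992), an adaptor of blood cells, and Clec10a (0.991), a macrophage lectin. They were picked from 12112 genes with a symbol for this likeness, so the likeness is not separate support. A list of 12 macrophage and T cell markers, added after the data were seen, was tested in full. Its genes were mixed in level, with a median mean ratio of 1.41 but 0.09 for Mrc1 and -0.24 for Cd163. Cd163 was above background in Cy3 on 1 of 8 arrays. The mean log2 ratio of the list was 1.91, 0.84, 1.86 and 1.76 in control rats and 0.40, 1.12, 1.77 and 1.13 in telmisartan rats. Rat 302 was lowest and rat 102 highest, as for Ceacam10.

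The group means of that list were 1.59 ± 0.50 (SD, n = 4) and 1.11 ± 0.56 (SD, n = 4), and 11 of 12 genes had a lower mean in telmisartan rats, as did 50.5% of all genes tested. Of the 12, 2 were lower at an unadjusted p under 0.05, against 2.08% of all genes, and 0 passed at an adjusted p under 0.05. In Cy5 each of the 12 was above background on at least 7 arrays, and Cd3e and Cd2 were above it in Cy3 on 0 of 8. The part of immune cell content in the Ceacam10 ratios was not tested.

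**Figure D4:**
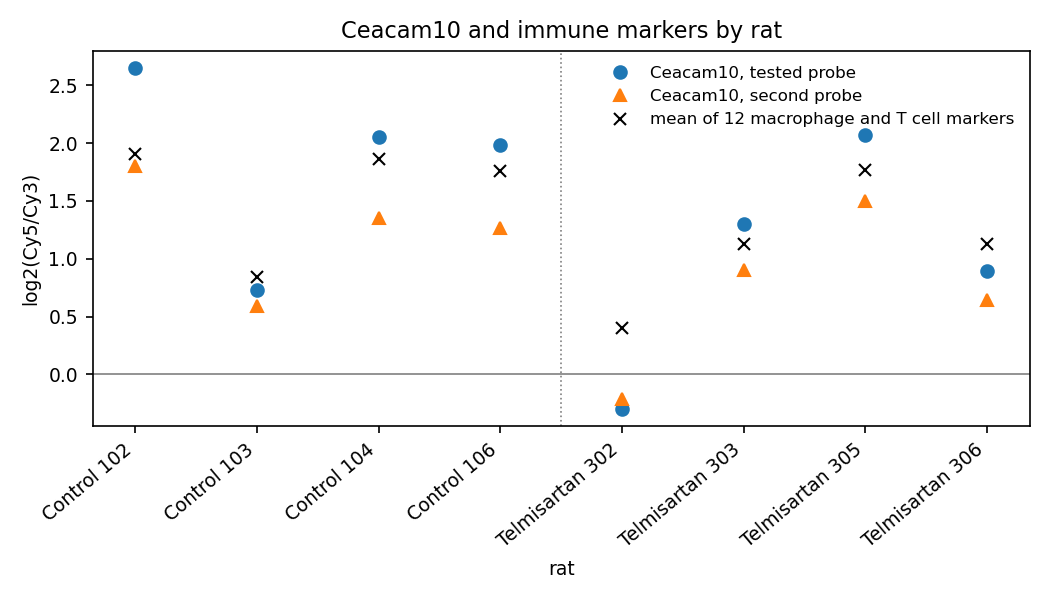
Log2 ratio of both Ceacam10 probes and the mean log2 ratio of 12 macrophage and T cell markers in each rat. The markers and the probes are lowest in telmisartan rat 302, at 0.40, -0.30 and -0.21, and highest in control rat 102.

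The genes nearest to the other members over the 8 arrays were Sfxn4 (Pearson r = 0.975), Pnpt1 (0.943) and Abcg3l3 (0.929) for Semg1, and Rbpj (0.946), Tbx19 (0.934) and Slx4 (0.92) for Klk1. Their own ratios were close to the reference, with means of -0.14, 0.61, 0.57, 0.28, 0.07 and 0.14. For Semg1 and Klk1, whose ratios vary little, such likeness is of small shifts between arrays.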

How the data were processed

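The members and gene lists were chosen with earlier results of these data known. Genes were named, on 2-colour Agilent rat arrays of 45018 spots (1639 control spots), through RefSeq accession (10726 probes), symbol (5586), older symbol (3730) or gene ID (1217), and otherwise kept the array's name (19753).

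Per the file headers, the authors deposited scanner output of Agilent Feature Extraction 9.1 with a mean intensity and a background intensity for each channel. The deposited value table held log10 ratios that matched the scanner software's log10 ratios, used here as an alternative. Intensities were background-corrected (normexp, offset 50) and normalised within arrays by loess in limma 3.58.1 under R 4.3.3, with control spots at weight 0. Spots flagged as outliers were left out, spots of a probe averaged, and the brightest probe of a gene kept among those with Cy5 well above background on at least 4 of 8 arrays and a value on all 8. Intensities per channel were scaled between arrays (Aquantile). A group term was fitted with lmFit and eBayes, and p-values adjusted over 23193 genes (threshold 0.05). Intervals are at 95%. Tgm4, below that filter, was fitted without it. The 4 arrays per group limit the precision; rats are taken as replicates from the labels. All 5 members were named with every probe; so were the 3 genes most correlated with each tested member and up to 4 genes of each other list by size of mean ratio. One gene that this rule names is not reported here. Alternatives were an offset of 10, no background correction, median centring, scanner ratios, the value table, other filters, slide as a block and each rat left out. The fit was tested on simulated data.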

Additional observations from a re-analysis of the deposited data

How the results depend on the processing

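No paired analysis was possible because the labels share no replicate numbers between groups. For telmisartan minus control (log2), 7 of 24 alternatives left the Svs4 estimate as it was; over the 17 that moved it, it ran from 0.46 to 0.78 (limma adjusted p over all 24 from 0.306 to 1). For Ceacam10, 18 moved it, between -1.24 and -0.43. The value table repeats the scanner software's ratios. Leaving out 1 rat in turn gave -0.15 to -0.08 for Semg1, 0.46 to 0.73 for Svs4, -0.003 to 0.14 for Tgm4 and -0.090 to 0.051 for Klk1, and 0 to 1 called genes; the 1 was BI289714 without control rat 102 and AI045810 without telmisartan rat 303. Signs reversed for Semg1 on slide 2 alone (0.059), for Klk1 with median centring (0.080), on slide 2 alone (0.079) and without control rat 102 (0.051), and for Tgm4 with median centring (-0.14), scanner software ratio (-0.28), value table (-0.28), Cy5 alone (-0.18), without control rat 103 (-0.0028) and without telmisartan rat 306 (-0.0026); the cause was not tested. A filter in Cy5 on all 8 arrays left no value for Tgm4. The level over the reference changed with scaling: median centring moved the median of all genes from 0.06 to 0.69, and gave -5.58 for Semg1, -2.85 for Svs4 and -4.73 for Klk1. Relative to the median of all genes, Semg1 was -6.96 in the main setting and -6.27 with median centring, Svs4 -4.25 and -3.54, and Klk1 -6.18 and -5.42. The scanner software ratio and the value table both put Semg1 at -7.08. Dim signal limits Tgm4 and the Ceacam10 reference level, not Semg1, Svs4 or Klk1.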

Other observations

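A list of genes drawn up around semen liquefaction, namely protease inhibitors, an acid phosphatase and Azgp1, was also examined. Of 8, 7 were tested, and 1 of 7 was above the reference by over 2-fold on all 8 arrays: Azgp1, zinc alpha-2-glycoprotein, at a mean log2 ratio of 3.99. The protease inhibitor Slpi was at 1.74 and varied among control rats with an SD of 1.27. Serpina5, the protein C inhibitor, was at 0.82 and the Kunitz inhibitor Spint2 at -0.65. For telmisartan, 6 of 7 differences were positive, against 49.5% of all genes tested, with a median of 0.14, and 0 of 7 had an unadjusted p under 0.05.

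The uroplakin gene Upk1b had a telmisartan minus control difference of 0.81 on the log2 scale (limma unadjusted p = 0.00464, adjusted p = 0.921), and the other tested uroplakin, Upk3a, one of -0.46 (adjusted p = 0.982).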
